A study of Mus musculus with 13 samples.

Results

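Complement transcripts of mouse lung were followed through 9 genes, taken by symbol from the 31053 genes counted. They are C1qa, C1qb and C1qc, which encode the chains of C1q, C4b, C3, the factors Cfb and Cfp, and the receptors C3ar1 and C5ar1. All 9 were found, and for each the cell classes that hold its transcripts were described. Values are unique molecular identifiers (UMIs), each of which marks 1 captured RNA molecule, and a level is the gene's UMIs for each 1000000 UMIs of a class (CPM, counts scaled to that total). Levels of different genes were not compared with each other, except for the C1q chains, where the shares are of captured 3' ends.

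The study examined lungs of C57BL/6 mice given porcine pancreatic elastase (PPE), which injures the alveolar walls. By the labels there is 1 sample each of an asthma model, made with ovalbumin, a control, PPE-emphysema and PPE-recovery. The control and PPE-emphysema mice received repeated instillations into the airway and the recovery mouse a single one. The study's groups held more mice, of which it states that 1 per group was used for single-cell sequencing. The other 9 samples, 3 each named acute injury, con and emphysema, had no file of their own and were not analysed separately. The single-cell counts are 1 matrix of 37344 barcodes from 7 numbered libraries. No label ties a library to a group, and none says whether a library comes from these 9 samples. The matrix was therefore treated as 1 sample, no test was made between groups, and libraries are named by number and are not replicates.

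Barcodes with at most 10% of their UMIs from mitochondrial genes were kept, which left 33618 cells with 29619014 to 76435633 UMIs per library and a median of 6684.5 UMIs per cell. Libraries 1, 2, 3 and 7 were rich in lung epithelial transcripts, whereas in libraries 4, 5 and 6 hemoglobin genes took 35.3% to 40.6% of the UMIs. Sftpc, the defining transcript of AT2 cells, was at 0 to 0.0660 CPM in libraries 4, 5 and 6 and at 2674 to 9212 in the others, so these 3 libraries lack what the label lung would give, and their origin was not resolved here. Without them the pooled level in the highest class stayed within its interval for 8 of the 9 genes, C5ar1 being the exception. For the C1q chains, Cfp, C3, C4b and Cfb this was fixed in advance. Their highest classes have at most 1 cell in libraries 4, 5 and 6. Between 2 and 17 barcode sequences were shared by each pair of libraries, 153 in all. Clustering without any complement gene gave 29 classes, each named by its markers and written as "-like", while 629 cells in 17 clusters kept no name. Of 206 marker genes, 172 were highest in the class they mark. The interstitial macrophage-like cells carried Apoe, Ccl8, Ms4a7 and Folr2 above the other classes, but 3 of their 9 markers (Pf4, Maf and Stab1) were higher elsewhere. A dendritic cell class, cDC2-like, was highest for only 2 of its 7 markers, classical monocyte-like cells for 3 of 6 and neutrophil-like cells for 3 of 8. Alveolar macrophage-like cells were highest for 5 of 8, and Chil3 and Fabp4 among the others were highest in Arg1 macrophage-like cells. When cells were gated by their own markers, 2013 of 3260 alveolar, 846 of 1184 Arg1 and 553 of 851 interstitial macrophage-like cells kept their name. Agreement was lower for eosinophil-like cells (27 of 220) and neutrophil precursor-like cells (1 of 131). It was higher for neutrophil-like cells (2018 of 2298) and B cell-like cells (4457 of 4604). The cDC2-like class kept 415 of 648 cells and the basophil or mast cell-like class 82 of 121. The neutrophil precursor-like class rests on Ngp, Camp and Ltf, since its other 5 markers (Elane, Mpo, Prtn3, Ctsg and Ms4a3) were at 0 to 3.34 CPM, and 106 of its 131 cells are in library 4. The intervals given are exact at 95% and cover counting error only.

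Complement is a set of secreted proteins that tag particles and cells for removal. In the classical pathway C1q recognises a bound antibody or a dying cell and leads to cleavage of C4 and then of C3, whereas in the alternative pathway factor B (Cfb) forms the enzyme that cleaves C3 and properdin (Cfp) stabilises it. The fragments C3a and C5a act on leukocytes through C3ar1 and C5ar1, and although the liver makes most circulating complement, macrophages and stromal cells also make it locally.

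The C1q genes lie side by side on the minus strand of mouse chromosome 4 (GRCm38). C1qb spans 136880129 to 136886187, C1qc 136889804 to 136893065 and C1qa 136895917 to 136898803, with 3616 bases between the first pair and 2851 between the next. C4b and Cfb are on chromosome 17, at 34728380 to 34743882 and 34856374 to 34862518, and C3 is further along the same chromosome, at 57203970 to 57228136. Cfb lies 85 bases from its relative C2. C3ar1 is on chromosome 6 at 122847138 to 122856161, C5ar1 on chromosome 7 at 16246743 to 16259540, 2588 bases from the related receptor C5ar2, and Cfp on chromosome X at 20925454 to 20931555.

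The promoters of C1qb and C1qc are shown because these neighbouring genes have nearly the same pattern over classes, and those of C3ar1 and C5ar1 because the receptors have different ones. The sequences are from RefSeq (GRCm38.p6), 250 bases before to 50 bases after the start, and C1qa, Cfb and C4b had no entry in the table used. Capitals mark GAGGAA, a PU.1-type letter run, TGCTGA, a Maf-type letter run, and TGACTCA, an AP-1-type letter run, on either strand.
C1qb promoter, chr4:136886151-136886450, minus strand: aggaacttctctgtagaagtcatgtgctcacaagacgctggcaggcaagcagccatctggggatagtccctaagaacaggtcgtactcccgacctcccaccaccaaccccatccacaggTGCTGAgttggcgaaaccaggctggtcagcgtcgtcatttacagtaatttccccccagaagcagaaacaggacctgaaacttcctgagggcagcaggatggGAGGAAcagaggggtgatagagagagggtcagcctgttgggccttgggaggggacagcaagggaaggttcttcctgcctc
C1qc promoter, chr4:136892865-136893164, minus strand: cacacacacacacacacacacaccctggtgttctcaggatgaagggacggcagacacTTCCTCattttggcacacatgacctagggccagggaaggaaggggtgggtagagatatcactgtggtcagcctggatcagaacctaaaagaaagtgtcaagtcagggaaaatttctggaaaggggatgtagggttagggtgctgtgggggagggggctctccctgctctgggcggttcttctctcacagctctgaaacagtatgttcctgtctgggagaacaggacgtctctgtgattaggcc
C3ar1 promoter, chr6:122856108-122856407, minus strand: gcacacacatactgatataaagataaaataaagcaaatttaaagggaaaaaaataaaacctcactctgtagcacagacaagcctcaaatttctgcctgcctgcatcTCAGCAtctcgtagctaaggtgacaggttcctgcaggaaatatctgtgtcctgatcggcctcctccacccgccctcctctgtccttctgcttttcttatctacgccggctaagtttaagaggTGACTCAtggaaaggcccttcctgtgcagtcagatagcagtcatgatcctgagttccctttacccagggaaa
C5ar1 promoter, chr7:16259289-16259588, minus strand: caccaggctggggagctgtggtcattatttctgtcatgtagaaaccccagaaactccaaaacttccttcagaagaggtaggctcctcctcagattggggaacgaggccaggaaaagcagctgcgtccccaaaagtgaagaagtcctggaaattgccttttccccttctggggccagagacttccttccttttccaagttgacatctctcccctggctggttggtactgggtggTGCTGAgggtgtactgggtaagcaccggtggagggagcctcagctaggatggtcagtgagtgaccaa
C1qb holds TGCTGA at position -131 and GAGGAA at -30, counted from the start given by RefSeq. C1qc holds GAGGAA on the reverse strand at -193 (written TTCCTC). C3ar1 holds TGCTGA on the reverse strand at -144 (written TCAGCA) and TGACTCA at -22, and C5ar1 holds TGCTGA at -17. The gene spans given above are from another annotation, GENCODE. For C1qc and C5ar1 they reach upstream of the RefSeq starts, to 136893065 and 16259540. The C5ar1 match thus lies inside the span given for the gene, and the positions depend on the start used. Of 32851 promoters of the same length, 28.3% hold GAGGAA, 19.5% TGCTGA and 5.20% TGACTCA, and a match describes the letters alone. The 3 letter runs do not overlap in these promoters.

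**Figure D1:**
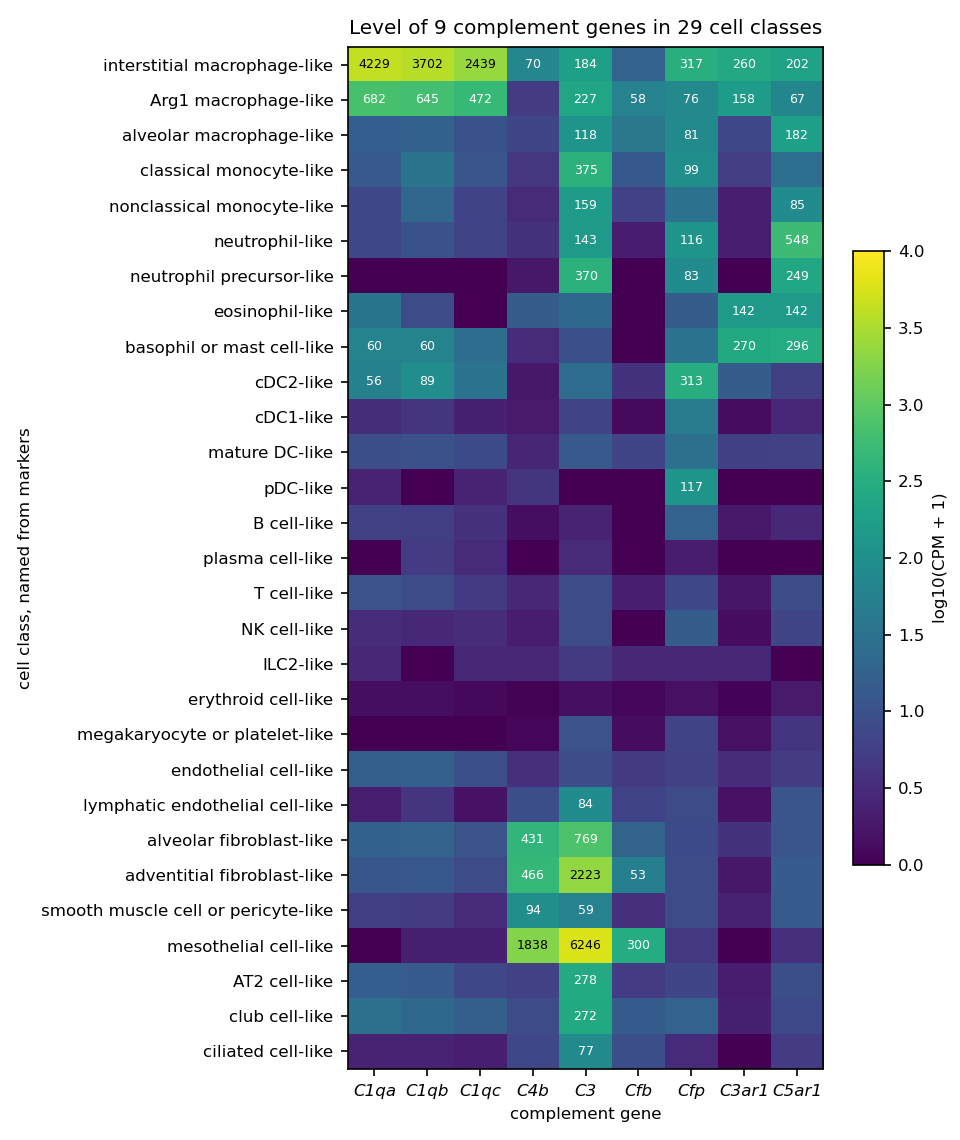
Level of each of the 9 complement genes (columns) in each of the 29 named cell classes (lines of the map), pooled over libraries. Colour is log10 of CPM plus 1, and levels of 50 or more are printed; the C1q chains are highest in interstitial macrophage-like cells, C3, C4b and Cfb in mesothelial-like cells and C5ar1 in neutrophil-like cells.

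The 9 genes were highest in different cell classes. The 3 C1q chains were highest in interstitial macrophage-like cells, C4b, C3 and Cfb in mesothelial-like cells with fibroblast-like cells or macrophages next, and C5ar1 in neutrophil-like cells. Cfp had nearly equal levels in interstitial macrophage-like and cDC2-like cells, the latter a class of dendritic cells, and C3ar1 in basophil or mast cell-like and interstitial macrophage-like cells. For 6 of the 9 genes the highest class was at least 2-fold above the next, whereas 18.8% of the 12651 genes with enough UMIs were. The 6 are the neighbouring C1q chains and C4b, C3 and Cfb. The last 3 lead through 49 mesothelial-like cells, of which library 3 alone has at least 20. As the 9 genes were chosen with earlier results of these data known, the count is a description only. The median ratio of the highest to the next class was 3.94 for the 9 genes and 1.25 for all genes. It was 2.0 for the 32 genes of the wider complement list that could be compared, which include the 9.

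The C1q chains assemble into 1 protein, and their transcripts were found in the same class. In the 851 interstitial macrophage-like cells C1qa was at 4229 CPM (4189 to 4269), C1qb at 3702 and C1qc at 2439. These cells held 75.6% of all C1qa UMIs, 72.3% of the C1qb UMIs and 72.6% of the C1qc UMIs. The next class, the 1184 Arg1 macrophage-like cells that express Arg1, Mmp12, Gpnmb, Spp1 and Ctsk, had 682, 645 and 472 CPM, so that the interstitial class was 6.20-fold (6.06 to 6.35), 5.74-fold and 5.17-fold above it. The order of these classes was the same in each of the 3 libraries in which both could be compared.

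The level of C1q in its main class differed between libraries. In interstitial macrophage-like cells C1qa was at 3970, 5036, 4458 and 2803 CPM in libraries 1, 2, 3 and 7. C1qb was at 3423, 4528, 3979 and 2246, and C1qc at 2153, 2965, 2756 and 1795. All 3 chains were highest in library 2 and lowest in library 7. The class had 331, 304, 112 and 103 cells in these libraries and 1 cell in library 4, so the hemoglobin-rich libraries give no value for it. In all cells of the hemoglobin-rich libraries together C1qa was at 0.692 to 1.22 CPM per library, against 573, 243, 137 and 152 in libraries 1, 2, 3 and 7. C1qb was at 9.66, 2.07 and 1.55 CPM in libraries 4, 5 and 6.

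In Arg1 macrophage-like cells C1q depended on the library. C1qa was at 1177 CPM in the 450 cells of library 1, but at 269 in the 102 cells of library 2 and at 289 in the 620 cells of library 7. C1qb was at 1155, 272 and 224 and C1qc at 799, 177 and 220 in the same order. Library 1 was thus above the other two for each chain, and without it the pooled class levels of C1qa, C1qb and C1qc were 289, 241 and 212.

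**Figure D2:**
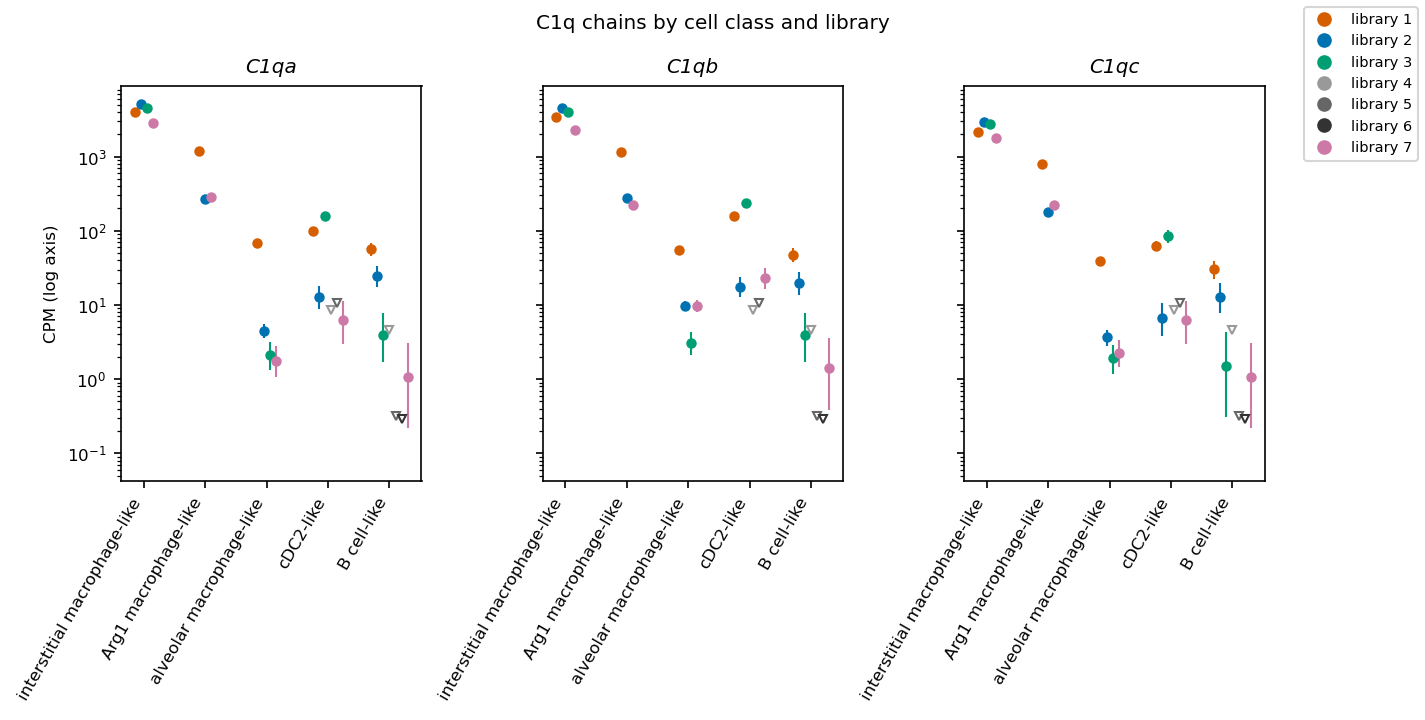
Levels of C1qa, C1qb and C1qc in 5 cell classes, with a point for each library that has at least 20 cells of the class. The y axis is CPM on a log scale, bars are exact 95% Poisson intervals and open triangles mark the 3-count limit where no UMI was counted; the interstitial macrophage-like points lie between 1795 and 5036 for the 3 chains.

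Other classes had far less C1q. Alveolar macrophage-like cells, which clear the air spaces, were numerous (3260) and had C1qa at 14.7 CPM, at 69.3 in library 1 and at 4.49, 2.10 and 1.78 in libraries 2, 3 and 7. In library 1 a small cluster of dividing alveolar macrophage-like cells stood out, with C1qa at 560 in 51 cells, while the largest cluster was at 29.5. The cDC2-like cells had C1qa at 56.2, with 101 in library 1, 12.9 in library 2 and 158 in library 3. B cell-like cells are not a known source of C1q and serve as a measure of stray RNA. Their C1qa level was 56.4 in library 1, 24.3 in library 2, 3.97 in library 3 and 1.06 in library 7, so library 1 was also highest in this class, and the part of stray RNA in the library 1 values was not tested. The C1qa UMIs of basophil or mast cell-like cells came from 1 cell of library 2. C1qa had no UMI in mesothelial-like cells, which allows up to 3.67 CPM, and none in neutrophil precursor-like cells, which allows up to 2.50.

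Single cells carried the chains together. Of 851 interstitial macrophage-like cells 734, or 86.3% (83.8 to 88.5), had a UMI of all 3 chains, and of the cells with any chain 93.5% had all of them. By library the share with all 3 was 87.9%, 90.8%, 87.5% and 67.0% in libraries 1, 2, 3 and 7. It was thus lowest in library 7, where 20.4% of the interstitial macrophage-like cells had no C1q UMI at all. The share was 79.0% when each cell was thinned to 1500 UMIs, and other shares are given unthinned unless that depth is named.

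The Arg1 macrophage-like class was split. All 3 chains were found in 32.5% of the Arg1 macrophage-like cells and none in 45.0%, and the share with all 3 was 57.1%, 26.5% and 16.0% in libraries 1, 2 and 7. At 1500 UMIs per cell the Arg1 macrophage-like share with all 3 was 17.6%. Among alveolar macrophage-like cells 0.613% had all 3 chains (median 14671 UMIs), and in libraries 1, 2, 3 and 7 so did 4 of 1358 B cell-like cells, or 0.295%. At 1500 UMIs per cell the alveolar share, 0.0637%, was not above the 0.151% of these B cell-like cells. Both shares rest on very few cells and pool the libraries, and the dividing alveolar cluster of library 1 was not counted apart. They therefore cannot decide whether joint detection in alveolar macrophage-like cells was above stray RNA. C1qa alone was detected in 89.2% of the interstitial macrophage-like cells (median 10417 UMIs per cell) and, in libraries 1, 2, 3 and 7, in 1.77% of B cell-like cells (median 3983.5 UMIs), and at 1500 UMIs per cell in 86.0% and 0.603%.

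**Figure D3:**
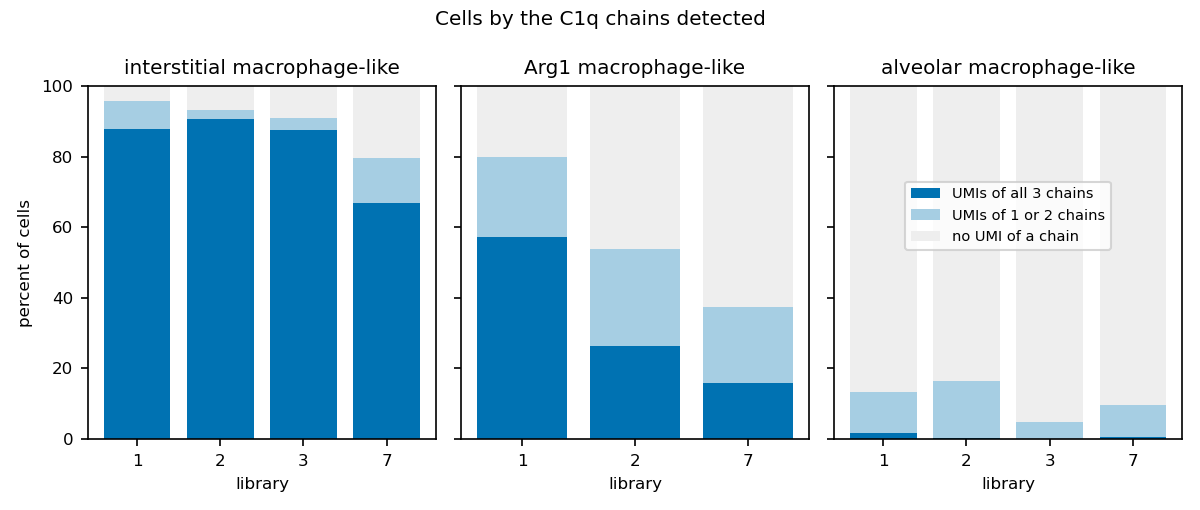
Percent of cells with a UMI of all 3 C1q chains, of 1 or 2 chains, or of none, stacked for each class and library. Interstitial macrophage-like cells had all 3 in 67.0% to 90.8% of cells, Arg1 macrophage-like cells in 16.0% to 57.1%.

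The summed C1q level per cell showed the same split. Its median over interstitial macrophage-like cells was 12201 CPM, with 319 at the 10th and 19802 at the 90th percentile. By library the median was 9442, 14575, 13410 and 8072 in libraries 1, 2, 3 and 7. In Arg1 macrophage-like cells the median was 153 and the 90th percentile 4477, with medians of 1376 in library 1, 45.6 in library 2 and 0 in library 7. The C1q-rich cells of the Arg1 class were therefore a minority in library 7.

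The chains kept a steady proportion in the main source. In interstitial macrophage-like cells C1qa made up 40.8% of the C1q UMIs, C1qb 35.7% and C1qc 23.5%, and C1qa ranged from 39.8% to 41.6% over the 4 libraries. C1qc ranged from 22.5% in library 1 to 26.2% in library 7. The Arg1 macrophage-like cells had 37.9%, 35.9% and 26.2%. The proportion differed in some classes of low C1q. C1qb made up 59.9% in classical monocyte-like, 62.8% in nonclassical monocyte-like and 50.1% in cDC2-like cells, from 1293, 387 and 1566 C1q UMIs. These shares compare UMIs of different genes and thus also how well each 3' end was captured.

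C4b, the target of the activated C1 complex, belonged to the stroma. It was at 1838 CPM (1746 to 1933) in the 49 mesothelial-like cells, which line the lung surface, at 466 in the 226 adventitial fibroblast-like cells and at 431 in the 1701 alveolar fibroblast-like cells. Library 3, the one library with at least 20 mesothelial-like cells, had C4b at 1080 in them. The pooled mesothelial level was 3.94-fold above the next, while the fibroblast classes had overlapping intervals, 439 to 493 and 421 to 440. The alveolar fibroblast-like cells, the most numerous of these, held 63.6% of the C4b UMIs. By library C4b in them was 929, 358, 495 and 593 CPM in libraries 1, 2, 3 and 7, highest in library 1, which has 91 of these cells. In adventitial fibroblast-like cells it was 554 in library 2 and 369 in library 3. The C4b counts are uncertain where reads fit its near-identical copy C4a, which was not analysed here.

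C4b was lower in other classes. Smooth muscle cell or pericyte-like cells were at 94.0 and interstitial macrophage-like cells at 69.6, with 28.5, 79.3, 139.6 and 134 in libraries 1, 2, 3 and 7. The C4b order over these libraries, with library 1 lowest, differs from that of C1q in the same cells.

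C3, on which all pathways converge, had the same leading class. C3 was at 6246 CPM (6076 to 6420) in mesothelial-like cells, 2.81-fold above the 2223 of adventitial fibroblast-like cells, and alveolar fibroblast-like cells were at 769. The mesothelial-like cells were few, with 3, 13, 24 and 9 in libraries 1, 2, 3 and 7, and library 3, which alone has at least 20, was at 4374. Adventitial fibroblast-like cells were alike in the libraries that can be compared, 1989 in library 2 and 2150 in library 3. At 1500 UMIs per cell a C3 UMI was found in 93.0% of mesothelial-like, 73.6% of adventitial fibroblast-like and 43.2% of alveolar fibroblast-like cells, and in 0.377% of B cell-like cells of the same libraries (median 3983.5 UMIs before thinning).

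The largest shares of C3 came from other cells than the highest class. Within libraries 1, 2, 3 and 7 alveolar fibroblast-like cells held 32.0% of the C3 UMIs, alveolar macrophage-like cells 12.3%, adventitial fibroblast-like cells 12.2% and mesothelial-like cells 11.2%. Alveolar fibroblast-like C3 was 3564 CPM in library 1, 435 in library 2, 980 in library 3 and 1330 in library 7. Library 2 holds 1139 of the 1701 cells of this class, and without it the pooled C3 level was 1428.

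**Figure D4:**
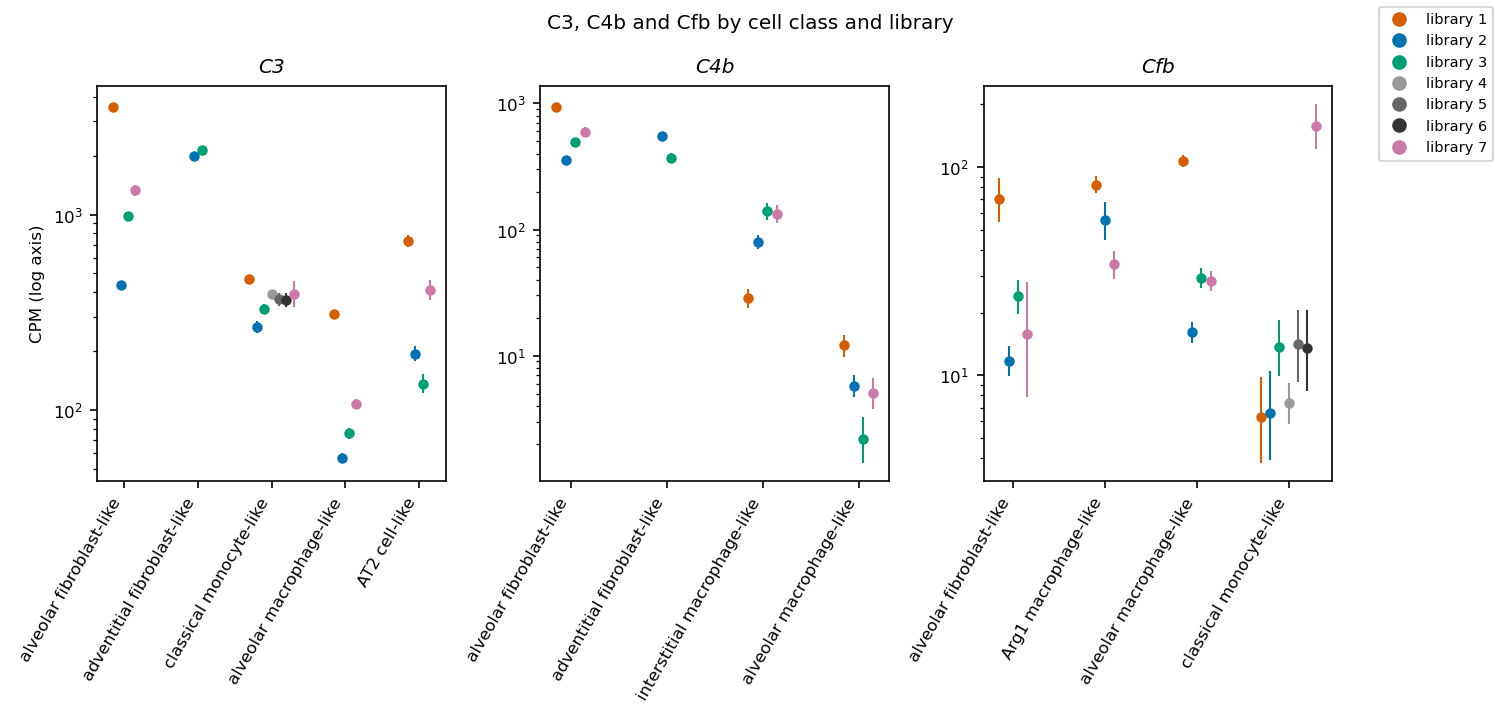
Levels of C3, C4b and Cfb by cell class, with a point for each library that has at least 20 cells of the class. The y axis is CPM on a log scale and bars are exact 95% Poisson intervals; library 1 gives the highest alveolar fibroblast-like point for each of the 3 genes (3564, 929 and 70.0).

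Library 1 was above the others for C3 in several classes. In AT2-like cells, the surfactant-making epithelium, C3 was at 731, 194, 136 and 412 CPM in libraries 1, 2, 3 and 7. In alveolar macrophage-like cells it was 309, 56.8, 75.8 and 107, and in interstitial macrophage-like cells 277, 110, 53.2 and 159. Without library 1 the pooled C3 levels of these macrophage classes, 118 and 184, became 76.8 and 108. Within the largest cluster of alveolar macrophage-like cells C3 was still 252 in library 1 against 49.97, 72.6 and 94.8. A further cluster of that class, with 473 of its 571 cells in library 1, was at 329 in library 1, 179 in library 2 and 163 in library 7.

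Classical monocyte-like cells differed from this pattern. Their C3 level was 375 CPM and lay between 266 and 466 in all 7 libraries, the hemoglobin-rich ones included. It was detected in 89.6% of these cells. Neutrophil precursor-like cells were at 370, nonclassical monocyte-like cells at 159 and neutrophil-like cells at 143. C3 had no UMI in pDC-like cells (plasmacytoid dendritic cells), which allows up to 4.50 CPM.

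Cfb, the protease of the alternative pathway, was again highest in mesothelial-like cells, at 300 CPM (264 to 340), 5.16-fold above the next class. Arg1 macrophage-like cells were at 58.1, adventitial fibroblast-like cells at 53.2 and alveolar macrophage-like cells at 37.8. As the largest of these classes, the alveolar macrophage-like cells held 44.3% of the Cfb UMIs. Library 1 led in Arg1 macrophage-like cells, with Cfb at 82.1 against 55.5 and 34.1 in libraries 2 and 7. It also led in alveolar macrophage-like cells, with 107 against 16.1, 29.4 and 28.4 in libraries 2, 3 and 7. Within the largest alveolar cluster the order held, with Cfb at 60.6, 15.6, 31.0 and 22.6. Classical monocyte-like cells were between 6.28 and 14.2 in the other libraries but at 158 in library 7, where 13.5% of the 37 cells had a Cfb UMI. Cfb had no UMI in basophil or mast cell-like, NK cell-like, pDC-like or plasma cell-like cells, which allows up to 6.43, 1.09, 4.50 and 3.08 CPM. It also had none in eosinophil-like and neutrophil precursor-like cells, which allows up to 21.2 and 2.50.

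In single stromal cells C3 was found together with C4b and, less often, with Cfb. Whether C4b and Cfb, or all of these genes, share a cell was not tested. Nor was it tested whether the pairs exceed what the detection of each gene alone would give. C3 and C4b were detected together in 81.6% of mesothelial-like, 49.6% of adventitial fibroblast-like and 47.9% of alveolar fibroblast-like cells. C3 and Cfb were found together in 73.5%, 27.0% and 12.6% of these cells, whose median depths were 15354, 11027.5 and 10781 UMIs. At 1500 UMIs per cell the shares were 62.8%, 26.4% and 20.4% for C3 with C4b and 37.2%, 7.08% and 2.19% for C3 with Cfb, in the same order of classes, and neither pair was found in 1327 B cell-like cells of the same libraries. Over the 27 classes of at least 50 cells, which leaves the mesothelial-like class out, the levels of C3 and Cfb correlated at r = 0.72 and those of C3 and C4b at r = 0.63 on the log2 scale, as a description.

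Cfp, the stabiliser of the alternative pathway enzyme, was highest in myeloid cells. It was at 317 CPM (306 to 328) in interstitial macrophage-like cells and at 313 (301 to 325) in cDC2-like cells, a ratio of 1.01 (0.963 to 1.07), so these classes cannot be ordered. In interstitial macrophage-like cells Cfp was 274, 375, 294 and 347 in libraries 1, 2, 3 and 7, and in cDC2-like cells it was 358, 295, 308 and 358. The interstitial class was above the cDC2 class in 1 of 4 libraries. pDC-like cells followed at 117, neutrophil-like cells at 116, classical monocyte-like cells at 98.7 and alveolar macrophage-like cells at 80.7. In B cell-like cells of libraries 1, 2, 3 and 7 a Cfp UMI was found in 3.69% of cells at 1500 UMIs, a higher share than for C1qa, and the part of stray RNA in it was not tested.

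The receptor for C3a, C3ar1, was shared by basophil or mast cell-like cells and tissue macrophages. It was at 270 CPM (225 to 321) in the 121 basophil or mast cell-like cells and at 260 (250 to 270) in interstitial macrophage-like cells, a ratio of 1.04 (0.862 to 1.24) that gives no order. The basophil or mast cell-like cells of libraries 1, 2 and 7 were at 303, 205 and 222. In interstitial macrophage-like cells C3ar1 was 212, 287, 361 and 274 in libraries 1, 2, 3 and 7, and in Arg1 macrophage-like cells 176, 89.7 and 163 in libraries 1, 2 and 7. The interstitial and Arg1 macrophage-like classes together are the bulk of the signal, with 46.4% and 34.5% of the C3ar1 UMIs. Alveolar macrophage-like cells were low in every library, at 9.08, 6.60, 0.820 and 8.89.

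C3ar1 was low in most other classes. Classical monocyte-like cells were at 4.25 and neutrophil-like cells at 1.17. No UMI was counted in neutrophil precursor-like cells, which allows up to 2.50 CPM, or in mesothelial-like cells, which allows up to 3.67.

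The receptor for C5a, C5ar1, led in neutrophil-like cells, at 548 CPM (534 to 562) in 2298 cells. Its level differed between the kinds of library, with 652, 711, 776 and 797 in libraries 1, 2, 3 and 7 but 172, 390.5 and 375 in the hemoglobin-rich libraries 4, 5 and 6. Without the latter the class was at 757. Basophil or mast cell-like cells were at 296, neutrophil precursor-like cells at 249 and interstitial macrophage-like cells at 202, so that the neutrophil class was 1.85-fold above the next. Without library 4 the neutrophil precursor-like level of C5ar1 was 396, from 25 cells, and passed that of basophil or mast cell-like cells.

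Alveolar macrophage-like cells carried C5ar1 but little C3ar1. Their C5ar1 level was 182 CPM, with 45.5 in library 1 and 210, 247 and 176 in libraries 2, 3 and 7. They held 42.4% of the C5ar1 UMIs. Library 1, which had the highest C3 and Cfb in this class, thus had its lowest C5ar1. In the largest alveolar cluster C5ar1 was 86.0 in library 1 and 220, 256 and 194 in the others, and in the cluster found mostly in library 1 it was 28.7, 116 and 73.4 in libraries 1, 2 and 7. In Arg1 macrophage-like cells C5ar1 was highest in library 2, at 191, and was 50.2 and 39.8 in libraries 1 and 7.

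**Figure D5:**
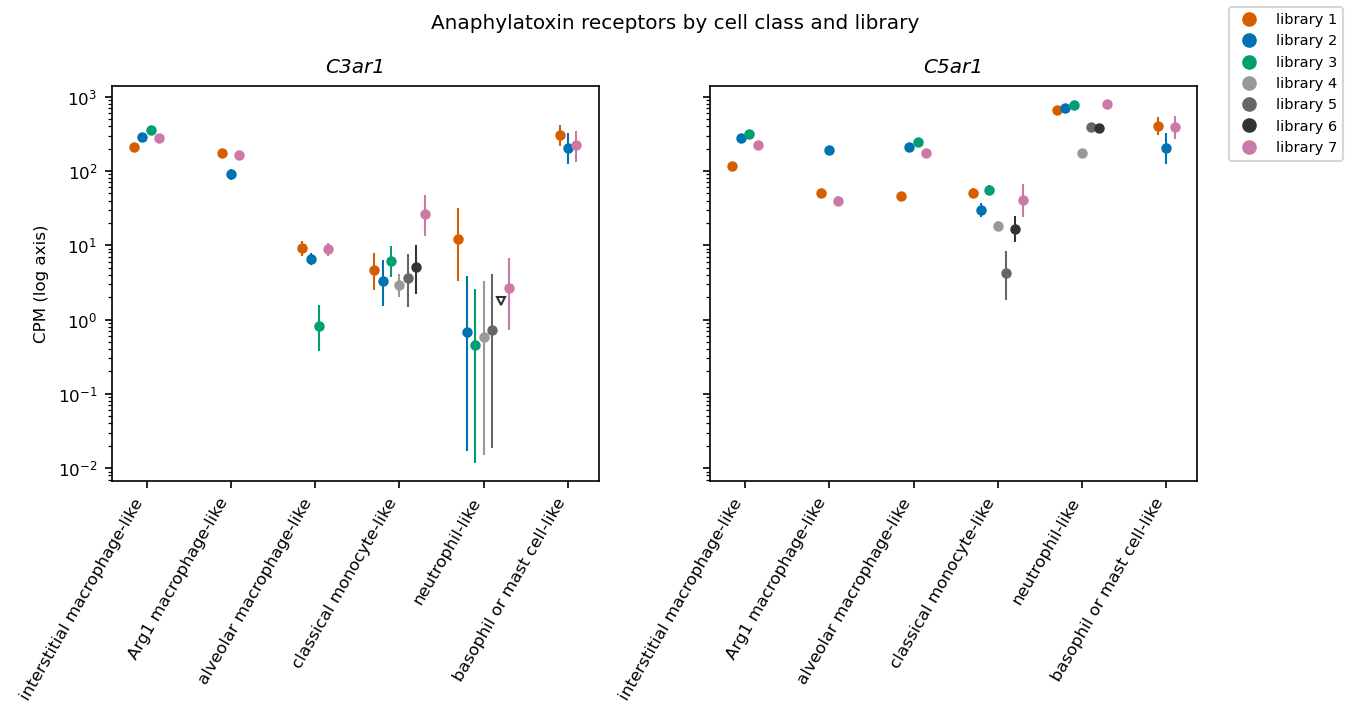
Levels of C3ar1 and C5ar1 in 6 cell classes, with a point for each library that has at least 20 cells of the class. The y axis is CPM on a log scale, bars are exact 95% Poisson intervals and open triangles mark the 3-count limit where no UMI was counted; alveolar macrophage-like cells lie at 45.5 to 247 for C5ar1 and at 0.820 to 9.08 for C3ar1.

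C3ar1 and C5ar1 were also looked for in the same cells. At full depth, which runs from a median of 3316 UMIs in neutrophil-like cells to 14671 in alveolar macrophage-like cells, both were detected in 443 of 851 interstitial macrophage-like cells (52.1%), in 16.1% of Arg1 macrophage-like cells and, among basophil or mast cell-like cells, in 33.9%. In alveolar macrophage-like cells 4.14% had both, and in neutrophil-like cells 4 of 2298. At 1500 UMIs per cell the shares with both receptors were 10.1% (8.11 to 12.4) in interstitial macrophage-like cells and 2.06% (1.24 to 3.20) in Arg1 macrophage-like cells, while the basophil or mast cell-like class had 10.9% (5.56 to 18.7). The interstitial macrophage-like and basophil or mast cell-like intervals overlapped at that depth. Alveolar macrophage-like cells had both in 0.0955%, against 0 of 2184 neutrophil-like cells and, in libraries 1, 2, 3 and 7, 0 of 1327 B cell-like cells, whose exact upper limit is 0.278%. Over the 27 classes the receptors correlated at r = 0.55, and C3 with its receptor at r = 0.12.

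Interstitial and alveolar macrophage-like cells were compared across all genes as a background. The 8239 genes with at least 500 UMIs in both classes together were used. Of these, 6.23% were at least 2-fold higher in the interstitial class and 10.4% at least 2-fold lower, with a median log2 ratio of -0.18. Of the 9 complement genes 6 were higher, with log2 ratios of 8.17 for C1qa, 8.07 for C1qc, 7.83 for C1qb, 5.39 for C3ar1, 3.57 for C4b and 1.97 for Cfp. Cfb was lower, at -1.15. The C1q chains and Cfp have the interstitial class as their highest, so their direction was fixed before this comparison. C1qc, C3ar1 and C4b had 439, 300 and 284 UMIs in the alveolar class and passed the 500-UMI limit only through the interstitial class. The count of 6 is thus a description and cannot be weighed against the share over all genes. The 20 genes of the wider complement list that could be compared include these 9 genes. Among the 20, 9 were higher and 3 lower, with a median log2 ratio of 0.40 against 3.57 for the 9 genes. Of those higher 6, and of those lower 1, belong to the 9 genes. C3 at 0.64 and C5ar1 at 0.16 lay between, and in C5ar1 library 1 was the exception in which the alveolar level (45.5) was below the interstitial level (115) by more than 2-fold.

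Eosinophil-like cells, named here by markers such as Ccr3, Prg2 and Alox15, were shallow, with a median of 558.5 UMIs in 220 cells, 184 of them in library 7. The study names as eosinophils clusters with high Ccr3, Il5ra, Epx, Prg2 and Alox15. It also reports a strong relation of these clusters to sorted eosinophils by deconvolution. The same clusters carry C1qa, Ms4a7 and C3ar1, and the study reports C1qa RNA in cells stained for the protein ECP. Here C1qa was highest in interstitial macrophage-like cells. Ms4a7 was too, but it served to name that class. Epx was highest in the eosinophil-like class, which it served to name, but only at 14.2 CPM. That is below the limit of 21.2 CPM set in this class for a gene without a UMI. The rank of Epx thus rests on too few UMIs to be weighed. How the study's clusters map to the classes used here was not tested. In eosinophil-like cells C3ar1 and C5ar1 were both at 142 CPM, from 20 UMIs each (86.5 to 219). C1qa was at 35.4 (11.5 to 82.6), from 5 UMIs, with 1 UMI of C1qb and none of C1qc, which allows up to 21.2. B cell-like cells of library 7 had C1qa at 1.06 CPM, and a count of 5 UMIs is too small to describe C1q in the eosinophil-like class further.

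A pair of small clusters that kept no name also carried C1q, and they are described here after their values were seen. A cluster of 19 cells from libraries 1, 2, 3 and 7, led by Prg4, Alox15, Cd5l, Saa3 and Fcna, had C1qa at 3994 CPM, C1qb at 3764 and C1qc at 2869. The same cluster had Cfp at 1682 (1536 to 1838), above every named class, C4b at 939 and C3ar1 at 248. The other, of 25 cells with macrophage genes and the endothelial gene Erg, had C1qa at 2529 and Cfp at 220.

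The rest of the pathway was read from a list of 55 complement genes, of which 54 were found and 31 reached 50 CPM in some class. In the classical pathway 7 of 9 did. C1ra and C1s1, the proteases bound to C1q, were highest in stromal cells, with C1ra at 470 and 456 and C1s1 at 716 and 702 in mesothelial-like and adventitial fibroblast-like cells. C1ra was lower, at 21.0 (18.5 to 23.8), in Arg1 macrophage-like cells and at 20.6 in alveolar macrophage-like cells, and between 4.36 and 10.5 by library in interstitial macrophage-like cells. C2, the partner of C4b, was at 628 in mesothelial-like cells, 7.21-fold above the next class. In the lectin pathway 2 of 9 did, Fcna at 78.1 in interstitial macrophage-like cells and Colec12 at 459 in alveolar fibroblast-like cells. Only 8.70% of the interstitial macrophage-like cells had an Fcna UMI, and the class held 66.4% of the Fcna UMIs.

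The alternative pathway had 3 of 4 genes at that level, all described above, and Cfd had 9 UMIs in all. Among 7 terminal genes 3 reached it. Hc, which encodes C5, the source of the ligand of C5ar1, was at 1694 in AT2-like cells, 82.4-fold above club cell-like cells. The AT2-like cells held 97.4% of the Hc UMIs. C6 was at 142 in AT2-like cells and C7 at 92.2 in alveolar fibroblast-like cells. Among the cells captured, Hc transcripts were thus mostly in AT2-like cells and C5ar1 transcripts mostly in myeloid classes. The proteins were not measured.

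Regulators of complement had varied sources. Of 8 soluble regulators 4 reached the level, among them Serping1, the C1 inhibitor, at 1880 in adventitial fibroblast-like cells, Clu at 1593 in mesothelial-like cells and Vtn at 69.9 in the smooth muscle cell or pericyte-like class. Of 7 membrane regulators 3 did, Cd55 at 582 in B cell-like cells, Cd59a at 77.6 in alveolar fibroblast-like cells and Cr1l at 163 in endothelial-like cells. Cr1l was nearly equal in NK cell-like cells, at 161 (ratio 1.01, 0.916 to 1.12), so these classes cannot be ordered. Of 10 receptors 9 did, among them C5ar2 at 91.9 in neutrophil-like cells, Cr2 at 171 in B cell-like cells, Itgam at 1628 in eosinophil-like cells, Itgax at 516 in Arg1 macrophage-like cells, Itgb2 at 796 in nonclassical monocyte-like cells, Cd93 at 1506 in endothelial-like cells and C1qbp at 112 in cDC1-like cells. The highest and next classes cannot be ordered for C5ar2 (eosinophil-like cells next, ratio 1.44, 0.757 to 3.17). The same holds for C1qbp (pDC-like cells next, ratio 1.18, 0.917 to 1.55).

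For each of the 9 genes the genes outside the complement list with the most similar levels over the 27 classes were sought among 12619 genes, by Pearson's r on the log2 scale and without a test, since the classes share libraries. C1qa was closest to Ms4a7 (r = 0.89), Ccl12 (0.85) and Mmp12 (0.84). C1qb was closest to Ms4a7 (0.93), Ccl2 (0.86) and Ccl12 (0.82), and C1qc to Ms4a7 (0.95), Ccl12 (0.88) and Pla2g2d (0.87). All 3 chains thus shared Ms4a7, a membrane protein of macrophages, and Ccl12, a chemokine, both of which were used to name the interstitial class.

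The other genes had different companions. C4b was closest to Tmem119 (0.94), Col14a1 (0.91) and Ildr2 (0.91), C3 to Mgst1 (0.87), Rhou (0.83) and Dram1 (0.83), and Cfb to Fmn1 (0.88), Lpl (0.85) and Fuom (0.84). Cfp was closest to Evi2a (0.87), Clec12a (0.86) and Milr1 (0.85). C3ar1 was closest to Mmp12 (0.83), Ccl9 (0.80) and Slc7a8 (0.79), and C5ar1 to Clec4e (0.94), Trem1 (0.91) and Fcgr3 (0.90). Among the 9 genes themselves r was 0.96 for C1qa and C1qb, 0.93 for C1qa and C1qc and 0.95 for C1qb and C1qc, and the next value was 0.85 for C1qa and C3ar1.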

How the data were processed

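Per the labels, lung cells of the samples were captured with a droplet kit that reads 3' ends. The authors deposited UMI counts per gene and barcode, as whole numbers and without further normalization, in 1 matrix whose header gives Cell Ranger's software version as 3.1.0. The submitters' processing notes name Cell Ranger, STAR and mm10. The study's methods state that reads were down-sampled between libraries when they were combined, which evens depth but removes counts. For the counting annotation and the map from libraries to groups, the sources used here give nothing. The labels name version 3 of the capture kit and the methods version 2.

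From the counts, barcodes with at most 10% mitochondrial UMIs were kept. Doublets were not removed in the main setting and were called with Scrublet as an alternative. After scaling each cell to 10000 counts and taking logs, 2000 variable genes, complement genes barred, gave 30 principal components. Mutual nearest neighbors served to align the libraries, and cells were clustered by the Leiden method at a resolution of 0.8 (Python 3.11.15, numpy 2.4.6, scipy 1.17.1, pandas 2.3.3, scanpy 1.11.5, leidenalg 0.10.2, igraph 0.11.9). Clusters were named by listed markers, with at least 3 of them in 10% of the cells, by a scoring rule settled after a first look at the clusters. Levels are pooled UMIs scaled to 1000000 (CPM) with exact Poisson intervals and shares have exact binomial intervals, and for a count of 0 the upper limit was set at 3 counts. No test was made, since the matrix is 1 sample. Shares of cells are unthinned unless given at 1500 UMIs, to which each cell was then thinned.

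The members, the marker lists and the complement list were chosen with earlier results of these data known. Genes named besides the 9 are those of the complement list at 50 CPM or more, the 3 genes nearest in pattern, among genes with at least 500 UMIs and classes of at least 50 cells, and markers, and 1 gene of the complement list is not reported here. Alternatives covered the cell filter, doublets, alignment, resolution, clustering genes, library weights, a gate on each cell's own markers and leaving out each library. The restriction to libraries 1, 2, 3 and 7 was added after the data were seen. Gene positions are from GENCODE M21 (GRCm38).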

Additional observations from a re-analysis of the deposited data

How the results depend on the processing

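Of 135 recomputed levels of the 9 genes in their highest class, 75 stayed within the counting interval of the reported level, 60 left it, and the highest class was kept in 119. Each C1q chain stayed in 5 of 15 settings. Leaving out library 4, 5 or 6, or all of them together, removes no mesothelial-like cell and at most 1 interstitial macrophage-like cell. Those settings thus could not test the C1q chains, Cfp, C3, C4b or Cfb, although they count among the 75. With cells within 2 SD of the mean UMIs and genes, levels were 5496 (C1qa), 4706 (C1qb), 3165 (C1qc), 7152 (C3), 671 (C5ar1), 356 (Cfb) and 2023 (C4b). With Scrublet calls removed they were 4358, 3823 and 2515 for the C1q chains and 725 for C5ar1. Without alignment of libraries they were 4839, 4217 and 2807 for the chains and 376 for Cfp, and at a resolution of 1.5 they were 5093, 4403, 2930 and 338. With complement genes kept for clustering they were 4776, 4190 and 2755 for the chains and 619 for C5ar1. With libraries weighted equally they were 4067 (C1qa), 3544 (C1qb), 4374 (C3), 201 (Cfb) and 1080 (C4b), the last 3 resting on library 3, the single library with enough mesothelial-like cells. With cells gated by their own markers they were 5258, 4469 and 3107 for the chains, 5981 for C3 and 331 for Cfp. In libraries 1, 2, 3 and 7 alone C5ar1 was at 757. Leaving out each library in turn gave 3847 to 4438 for C1qa, 3311 to 3927 for C1qb, 2190 to 2670 for C1qc, 4913 to 8249 for C3, 487 to 623 for C5ar1, 289 to 352 for Cfp, 204 to 405 for Cfb and 1362 to 2647 for C4b. The share of interstitial macrophage-like cells with all 3 C1q chains was 79.0% at 1500 UMIs per cell and 83.7% to 88.9% when libraries were left out. The highest class of C3ar1 stayed basophil or mast cell-like in 5 of 15 settings and that of Cfp interstitial macrophage-like in 9 of 15; the other 7 genes kept theirs in all 15. The counts of genes at least 2-fold apart kept within 1.5 times of their values. The causes were not tested. No paired analysis was possible because no library could be tied to a group or replicate. Precision is limited in eosinophil-like cells by 141253 UMIs in all and in mesothelial-like cells by 49 cells.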
